A study of Mus musculus with 6 samples.

Results

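The E2F and pocket protein family was followed here as the 10 genes E2f1 to E2f8, Rb1 and Rbl1, taken by symbol from the 51733 symbols of the count tables, by a rule that gives their names and holds no measured value, although earlier results of these data were known when it was written. E2f1, E2f2 and E2f3 were treated as the activators, E2f4 to E2f8 as the repressors, and Rb1 and Rbl1 as the pocket proteins. RNA came from Sox2-positive neural progenitor cells (NPCs) sorted from mouse neural tubes at E13.5. There were 3 libraries from Ybx1-KO embryos (labelled YBX1KO), which carry the null allele Ybx1tm1Ley, and 3 from sibling controls (labelled wildtype), with the strain given as C57BL/6. The NPCs of both groups were sorted by a Sox2-eGFP knock-in reporter (Sox2tm1Hoch), so the sorted cells include any cell in which that reporter protein persisted. The paper lists this reporter line under a strain name that is not C57BL/6 alone. The knockout is not limited to the neural tube. Libraries are named control 1 to 3 and Ybx1-KO 1 to 3, by accession order within the group. The first number in their titles is shared by controls 1 and 2 and by Ybx1-KO 1 and 2, and no source used here explains it.

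E2F factors bind the promoters of genes needed for DNA replication and the entry into S phase. E2f1 to E2f6 bind DNA together with a DP protein, and E2f7 and E2f8, the atypical members, bind without a DP partner. In early G1 the pocket proteins hold E2Fs and block or reverse their activity, Rb1 mainly that of E2f1 to E2f3 and the p107 protein of Rbl1 and the p130 protein of Rbl2 mainly that of E2f4 and E2f5. Cyclin-dependent kinases phosphorylate the pocket proteins and release the E2Fs, and several E2F genes are themselves E2F targets, so that they are transcribed in cycling cells. In the developing brain Rb1 is known for its part in the exit of progenitors from the cell cycle.

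Several genes of this family are known to carry E2F sites in their own promoters, so these sites are shown before the values. Promoter windows from 250 bases before to 50 bases after the RefSeq start site (GRCm38.p6) were held for 7 of the 10 members, in 9 windows, with none for E2f4, E2f5 or Rb1. The letters TTTCCCGC, TTTCGCGC, TTTGCCGC and TTTGGCGC were searched on both strands. A match stood in 4 windows, those of E2f2, E2f3, E2f7 and Rbl1, and in 2.26% of all 32851 windows (744). Each match is printed below with its neighbouring bases on the strand of the gene, the match in capitals.
E2f2, chr4:136172294-136172323, plus strand: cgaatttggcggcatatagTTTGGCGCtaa
E2f3, chr13:29986056-29986085, minus strand: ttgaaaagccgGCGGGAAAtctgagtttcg
E2f7, chr10:110745230-110745259, plus strand: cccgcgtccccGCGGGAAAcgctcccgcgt
Rbl1, chr2:157204534-157204563, minus strand: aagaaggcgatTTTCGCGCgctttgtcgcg
With the start site counted as 0, the capitals began at position 39 in E2f2, -11 in E2f3, -198 in E2f7 and -18 in Rbl1. In E2f3 and E2f7 they read as the reverse complement of TTTCCCGC. The start site of the E2f1 window lay 466 bases inside the GENCODE gene, and the window did not cover the annotated start of that gene. The Y-box letters CTGATTGG, which Ybx1 is known to bind, stood in 0 of the 9 windows and in 4.1% of all windows. The shorter CCAAT, whose reverse complement is part of the Y-box letters, stood in windows of E2f2, E2f3, E2f7 and E2f8 and in 37.4% of all windows. A match is a description of the letters in these windows and not a binding site.

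In the GENCODE M21 annotation of GRCm38 all 10 members were protein-coding genes. The activator genes E2f1 (chromosome 2, 154559407 to 154569892), E2f2 (chromosome 4, 136172394 to 136196057) and E2f3 (chromosome 13, 29906575 to 29986063) held 3154, 4882 and 5429 bases of exon. Rb1 (chromosome 14, 73183673 to 73325822) held 6015 bases of exon in 31 blocks, and Rbl1 (chromosome 2, 157145893 to 157204534) held 5993. E2f4 lay on chromosome 8, E2f5 on chromosome 3, E2f6 on chromosome 12, E2f7 on chromosome 10 and E2f8 on chromosome 7.

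The libraries held 20841990 to 23883542 counts on genes in the control group and 4743279 to 13321952 in the Ybx1-KO group, so the Ybx1-KO values rest on fewer reads. The detection floor, set at 3 counts, corresponded to 0.126 to 0.632 CPM (counts scaled to a common library total), depending on the library. Ybx1-KO 3 stood apart, with 59.5% of its read pairs outside genes and 4258 CPM on 1500 chemoreceptor genes (of smell and taste), while the other 5 libraries had 20.9 to 91.2 CPM there. The deleted gene, Ybx1, had 238, 531 and 306 normalized CPM in controls 1 to 3 and 126, 55.4 and 9.66 in Ybx1-KO 1 to 3, without overlap (log2 fold change -2.49 ± 0.675 SE, adjusted p = 0.301 by the edgeR fit). The listed NPC markers, Sox2 and Nes among them, had counts in all 6 libraries, with a summed level of 1461 to 1632 normalized CPM in control and 1107 to 1874 in Ybx1-KO. Of these 9 markers, 6 had a higher fitted level in Ybx1-KO, against 61.3% of all tested genes. Nes and Hes5 were higher without overlap (log2 fold changes 1.44 and 1.05), against 4.99% of all tested genes. For Hes5 this is opposite to the paper, which reports it as downregulated in Ybx1-KO NPCs. The lower markers were Fabp7, Sox1 and Sox2, with log2 fold changes of -0.66, -0.53 and -0.0052.

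Across the family, 9 of the 10 members had a higher fitted level in Ybx1-KO than in control NPCs, Rb1 being the exception, and none passed the test. A gene was called where edgeR's quasi-likelihood test gave an adjusted p under 0.05 with a change of more than 1.5-fold. This held for 0 of the 10 members and for 0 of all 21329 tested genes (0%). DESeq2, which called 214 of all tested genes (1%), and limma-voom, which called 0 (0%), also called 0 members, with 3 at an unadjusted p below 0.05 in each. At an unadjusted p below 0.05, 3 members were higher in Ybx1-KO (E2f1, E2f3 and E2f7), against 6.96% of all tested genes, and 0 were lower, against 4.26%. The count of 3 was 0 without control 1 or without control 3, 2 without Ybx1-KO 3 and 1 without a filter on low values. In 3 members (E2f1, E2f3 and E2f6) each Ybx1-KO library exceeded all control libraries, against 4.99% of all tested genes, and in 0 members the reverse held, against 8.15%. The median log2 fold change was 0.53 over the 10 members and 0.31 over all tested genes, 61.3% of which had a positive value. All 10 members passed the filter on low values in both groups.

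**Figure D1:**
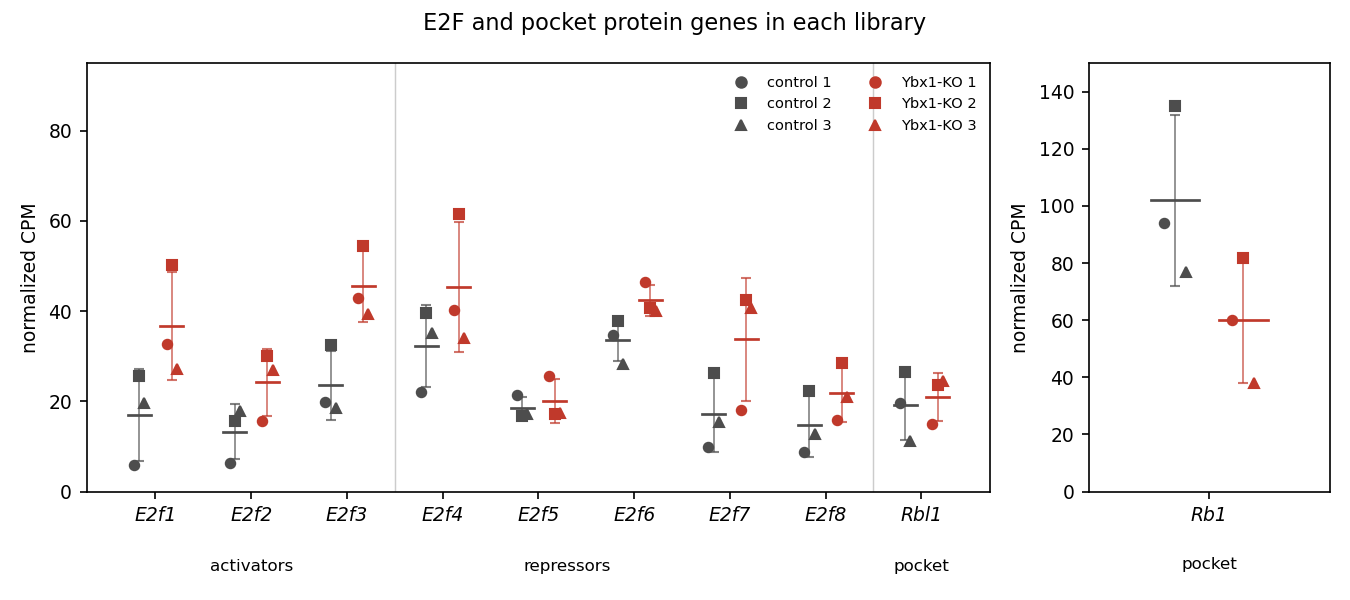
Normalized CPM of the 10 members in each library, with controls in grey and Ybx1-KO in red, each symbol a library, horizontal lines the group mean and bars the SD (n = 3). Rb1 has its own axis. E2f1, E2f3 and E2f6 show no overlap between the groups, and Rb1 is the member with the lower mean in Ybx1-KO.

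The activators had log2 fold changes from 0.86 to 1.11, and their median of 0.95 was the highest of the family's 3 classes. E2f1, the activator best known for driving S phase entry and, when unrestrained, apoptosis, had 5.85, 25.6 and 19.6 normalized CPM in controls 1 to 3 and 32.8, 50.2 and 27.3 in Ybx1-KO 1 to 3. The lowest Ybx1-KO library stood just above the highest control library, and control 1 was far below the other controls. Mean levels were 17.003 ± 10.1 and 36.7 ± 11.9 (SD, n = 3 each), a ratio of 2.16. The log2 fold change of E2f1 was 1.11 (standard error 0.486, unadjusted p = 0.0356, adjusted p = 0.444 by edgeR).

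E2f3, an activator that many dividing cells depend on, had 19.9, 32.4 and 18.5 normalized CPM in the controls and 43.0, 54.5 and 39.4 in the Ybx1-KO libraries. The groups did not overlap, and the gap between them was wider than for E2f1. Mean levels were 23.6 ± 7.67 and 45.6 ± 7.92 (SD, n = 3 each), and the log2 fold change was 0.95 (standard error 0.381, unadjusted p = 0.0236, adjusted p = 0.441 by edgeR). For E2f1 and E2f3 alike the two-sided exact permutation test of the means gave p = 0.1, the smallest that 3 against 3 allow.

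E2f2, which overlaps in function with E2f1 and E2f3, had 6.43, 15.6 and 17.9 normalized CPM in the controls and 15.8, 30.01 and 26.9 in the Ybx1-KO libraries. The groups overlapped, since Ybx1-KO 1 lay between controls 2 and 3. Its log2 fold change was 0.86, with a 95% interval from -0.11 to 1.84 (adjusted p = 0.450 by edgeR). Control 1 was the lowest library of all 6 for both E2f1 and E2f2. Without control 1, the log2 fold changes were 0.69 for E2f1 and 0.52 for E2f2, and without Ybx1-KO 3 they were 1.29 and 0.78.

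The repressors had a lower median log2 fold change, 0.49, in a range from 0.12 to 0.98. E2f4, the most abundant repressor and the usual partner of the pocket proteins in resting cells, had 22.1, 39.5 and 35.1 normalized CPM in the controls and 40.4, 61.6 and 33.96 in the Ybx1-KO libraries. The groups overlapped, with Ybx1-KO 3 below controls 2 and 3. E2f4 had a log2 fold change of 0.49, little more than its standard error of 0.391 (adjusted p = 0.552 by edgeR).

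E2f5, the close relative of E2f4, was the E2F gene with the smallest difference, with 21.4, 16.7 and 17.2 normalized CPM in the controls and 25.7, 17.1 and 17.3 in the Ybx1-KO libraries. Ybx1-KO 2 and 3 stood within the range of the controls. The log2 fold change was 0.12, with a 95% interval from -0.71 to 0.96. Without Ybx1-KO 1 its sign turned (-0.17).

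E2f6, which represses through a variant Polycomb complex and does not bind pocket proteins, had 34.8, 37.8 and 28.4 normalized CPM in the controls and 46.4, 40.7 and 40.1 in the Ybx1-KO libraries. Each Ybx1-KO library exceeded all control libraries, but the log2 fold change of 0.33 was smaller than its standard error of 0.355 (unadjusted p = 0.363, adjusted p = 0.665 by edgeR) and close to the 0.31 of the median tested gene. E2f6 also varied least between libraries among the E2F genes that did not overlap, with SDs of 4.79 and 3.47 CPM around means of 33.7 and 42.4 (n = 3 each).

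The atypical repressors E2f7 and E2f8, which are themselves E2F targets and damp E2F activity later in S phase, both had higher means in Ybx1-KO. E2f7 had 9.83, 26.2 and 15.3 normalized CPM in the controls and 18.03, 42.6 and 40.6 in the Ybx1-KO libraries. Ybx1-KO 2 and 3 lay above all controls, while Ybx1-KO 1 lay below control 2. The log2 fold change of E2f7 was 0.98 (standard error 0.457, unadjusted p = 0.0475, adjusted p = 0.444 by edgeR), a size like that of the activators.

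E2f8 had 8.78, 22.4 and 12.9 normalized CPM in the controls and 15.9, 28.6 and 21.03 in the Ybx1-KO libraries. The groups overlapped, with control 2 above Ybx1-KO 1 and 3. Its log2 fold change was 0.57, with a standard error of 0.449 (adjusted p = 0.547 by edgeR).

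The pocket proteins had fitted differences of opposite sign, of which that of Rbl1 was near 0. Rb1, the retinoblastoma protein gene, had 93.9, 135 and 76.97 normalized CPM in the controls and 60.1, 81.7 and 38.1 in the Ybx1-KO libraries. The groups overlapped only through Ybx1-KO 2, which stood above control 3. Mean levels were 102 ± 29.9 and 59.97 ± 21.8 (SD, n = 3 each), a ratio of 0.588. The log2 fold change of Rb1 was -0.77, with a 95% interval from -1.63 to 0.10 (unadjusted p = 0.0798, adjusted p = 0.450 by edgeR). It stayed negative in each of the 24 alternative fits, between -1.05 and -0.50.

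Rbl1, whose p107 protein is made mostly in cycling cells, had 19.7, 26.5 and 11.2 normalized CPM in the controls and 15.0, 23.6 and 24.6 in the Ybx1-KO libraries. The groups lay over each other, with a log2 fold change of 0.14 (95% interval from -0.77 to 1.04). It was -0.13 without control 3 and -0.015 without a filter on low values. The remaining pocket protein gene, Rbl2, is not a member and makes the p130 protein typical of resting cells. Rbl2 had 46.1, 44.2 and 36.6 normalized CPM in the controls and 16.2, 36.4 and 15.5 in the Ybx1-KO libraries. The Ybx1-KO libraries were all lower than the controls, by a narrow margin for Ybx1-KO 2, and the log2 fold change was -0.90 (standard error 0.410, unadjusted p = 0.0438, adjusted p = 0.444 by edgeR).

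**Figure D2:**
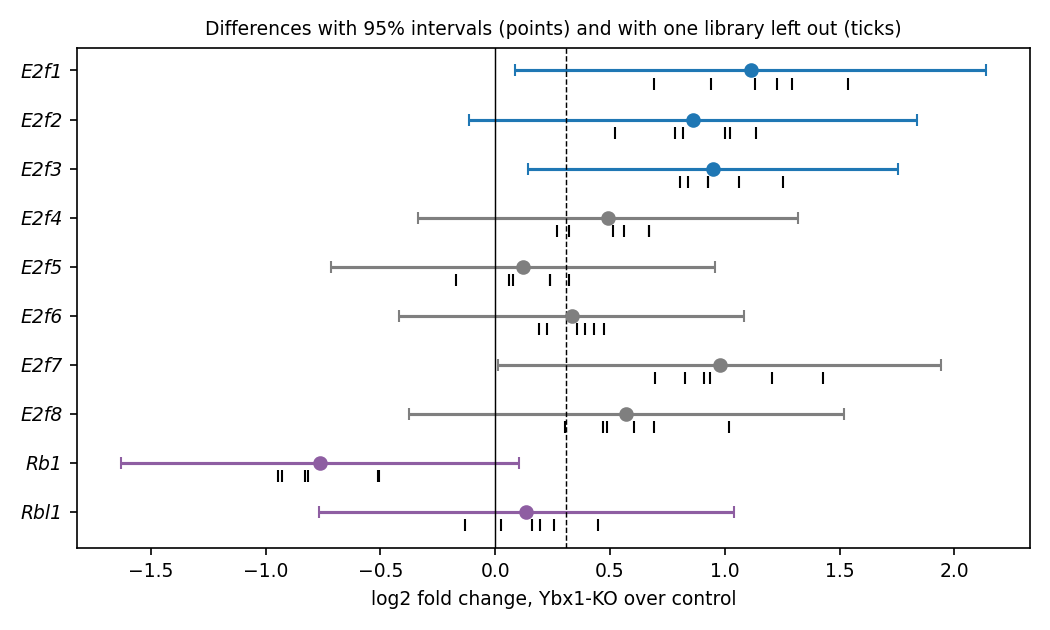
Log2 fold change of each member, Ybx1-KO over control, from the edgeR fit, with 95% intervals (points and bars) and the values with a library left out in turn (black ticks under each point). Activators are blue, repressors grey and pocket proteins purple. The solid line marks 0 and the dashed line the median of all tested genes, 0.31. The intervals of E2f1, E2f3 and E2f7 lie above 0, and that of Rb1 reaches 0.10.

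Levels were compared between genes as FPKM, which divides the CPM on all genes by the kilobases of exon. In control NPCs Rb1 had the highest mean of the family, 15.8 FPKM, followed by E2f4 at 12.2 and E2f5 at 9.74. The ranges of these 3 neighbours overlapped, and a gap separated E2f5 from E2f6 at 5.56 FPKM. Below it every neighbouring pair overlapped, from E2f1 at 4.93 and E2f3 at 4.04 through Rbl1 at 2.98, E2f2 at 2.51 and E2f8 at 2.48 down to E2f7 at 1.75.

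In Ybx1-KO NPCs the order began with E2f4 at 18.6 FPKM, set apart from the rest. E2f5 at 12.1 and E2f1 at 11.7 overlapped. Rb1 followed at 9.87 FPKM, without overlap with E2f1, with 10.4, 9.82 and 9.39 in Ybx1-KO 1 to 3 against 10.8, 11.5 and 12.8 FPKM for E2f1. E2f1 was thus above Rb1 in all 3 Ybx1-KO libraries, while in the controls Rb1 had 15.6, 20.1 and 11.7 FPKM and E2f1 had 1.86, 7.26 and 5.66. Below Rb1 every neighbouring pair overlapped, from E2f3 at 8.75 down to E2f7 at 4.06 and Rbl1 at 3.84.

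The balance of activators and repressors was read within each library, where the scaling between libraries cancels. E2f1 to E2f3 made up 18.6, 30.6 and 28.6% of the summed FPKM of E2f1 to E2f8 in controls 1 to 3 and 32.9, 38.2 and 35.4% in Ybx1-KO 1 to 3. Each Ybx1-KO library exceeded all control libraries, and the means differed by 9.53 percentage points. Without control 1, the lowest library, the difference was 5.86 points. The activators summed to 6.84, 15.5 and 12.1 FPKM in the controls and 22.4, 23.2 and 31.8 in Ybx1-KO, and the repressors to 29.9, 35.1 and 30.2 and to 45.8, 37.5 and 57.9 FPKM.

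The share of the single genes within the E2F sum differed as well. E2f3 made up 9.99, 10.6 and 7.35% of it in the controls and 12.1, 11.96 and 11.997% in Ybx1-KO, without overlap. E2f1 made up 5.06, 14.4 and 13.4% and then 15.9, 18.9 and 14.3%, with Ybx1-KO 3 just below control 2. E2f4 held 24.5, 28.5 and 30.9% in the controls and 25.1, 29.9 and 22.9% in Ybx1-KO, which overlapped. The ratio of the activators to the atypical repressors E2f7 and E2f8 overlapped between the groups, at 2.53, 2.46 and 3.27 in the controls and 4.38, 3.22 and 2.56 in Ybx1-KO.

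Rb1 was set against the activators in ratios that were chosen after their values were seen and carry no test. There were 2.28, 1.299 and 0.964 FPKM of Rb1 for each FPKM of E2f1 to E2f3 in the controls, and 0.464, 0.423 and 0.296 in Ybx1-KO. All 3 Ybx1-KO libraries lay below all 3 controls. With Rbl1 and Rbl2 added to Rb1 the ratios were 3.66, 1.89 and 1.47 in the controls and 0.680, 0.696 and 0.583 in Ybx1-KO. The ratio of Rb1 to E2f3 counts was close within the groups, at 4.72, 4.17 and 4.16 in the controls and 1.398, 1.499 and 0.968 in Ybx1-KO. The 2 genes have exons of like length, 6015 and 5429 bases.

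**Figure D3:**
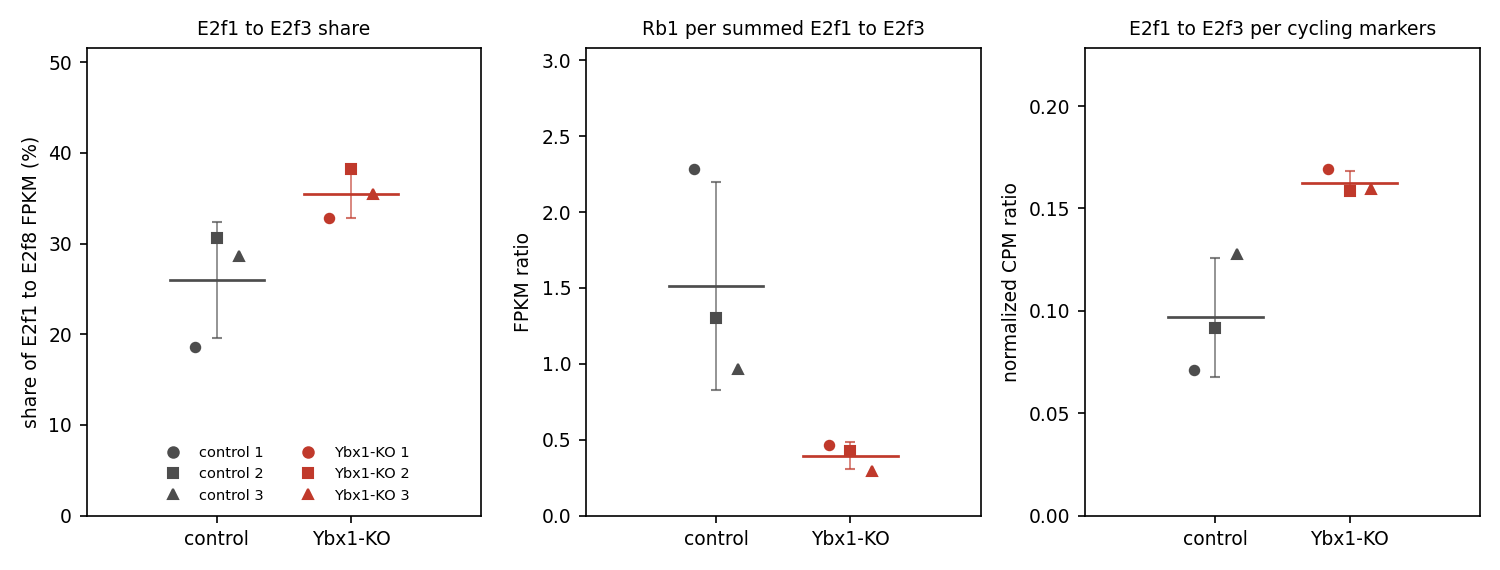
Quantities set against each other in each library, each on an axis from 0, with controls in grey, Ybx1-KO in red, lines for the mean and bars for the SD (n = 3). They are the share of E2f1 to E2f3 in the summed FPKM of E2f1 to E2f8, the FPKM of Rb1 per summed FPKM of E2f1 to E2f3, and the normalized CPM of E2f1 to E2f3 per summed normalized CPM of the cycling markers. The groups are apart in each, with Rb1 per activator at 0.964 or more in the controls and at 0.464 or less in Ybx1-KO. Mki67 and Top2a are the most abundant of the cycling markers.

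In normalized CPM, many members were highest within each group where the cycling markers were highest. On that scale the library with the most cycling marker RNA in each group was control 2 and Ybx1-KO 2. These were also the highest of their group for 8 and for 7 of the 10 members. In Ybx1-KO this order depends on the scaling. In FPKM each member was highest in Ybx1-KO 1 or Ybx1-KO 3. E2f1 had 10.8, 11.5 and 12.8 FPKM in Ybx1-KO 1 to 3, Rb1 10.4, 9.82 and 9.39, and Mki67 22.1, 26.0 and 33.3. The same was not counted over all tested genes. The summed level of Mki67, Top2a, Ccnb1, Plk1, Aurkb and Cdc20 was 454, 804 and 437 normalized CPM in the controls and 541, 851 and 586 in Ybx1-KO, overlapping between the groups. In a bulk library fewer cells of a type and less RNA per cell cannot be told apart. Control 2 and Ybx1-KO 2 were close in the summed cycling marker level but not in each marker. Top2a was lower in Ybx1-KO 2 (352 and 285 CPM) and the other cycling markers were higher. Among these, Plk1 had 27.2 and 78.7 CPM, Aurkb 22.98 and 46.5, and Cdc20 14.7 and 30.01, so the pair is not matched for cycling. This pair had 25.6 and 50.2 CPM of E2f1, 32.4 and 54.5 of E2f3, 26.2 and 42.6 of E2f7, and 135 and 81.7 of Rb1. In the same pair E2f5 had 16.7 and 17.1 CPM, E2f6 37.8 and 40.7, and Rbl1 26.5 and 23.6.

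Set per unit of cycling marker level, again chosen after the values were seen, the activators stood at 0.0709, 0.0916 and 0.128 in the controls and at 0.169, 0.158 and 0.160 in Ybx1-KO. Rb1 stood at 0.207, 0.168 and 0.176 in the controls and at 0.111, 0.0960 and 0.0650 in Ybx1-KO. Neither overlapped between the groups. The atypical repressors did, at 0.0410, 0.0605 and 0.0645 and then 0.0627, 0.0836 and 0.105, and so did the summed G1/S target genes, at 2.61, 1.90 and 2.95 and then 3.33, 2.18 and 2.80. Mki67 and Top2a, the most abundant cycling markers, had log2 fold changes of 0.19 and -0.057 and exons of 10061 and 9013 bases. The log2 fold change was 1.63 for Cdc20, 1.02 for Plk1, 0.68 for Aurkb and 0.17 for Ccnb1. Whether the activators differ beyond cycling was not tested.

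Markers of other cells that a sort could carry also differed between the libraries. The 12 neuron markers summed to 3849 to 5278 normalized CPM in the controls and to 1676 to 4177 in Ybx1-KO. Of these, 9 were lower in Ybx1-KO, beside 8256 of all 21329 tested genes. Their log2 fold changes ran from -4.87 for Neurod6 to 1.11 for Nefl. Neurod6 had 498, 16.3 and 351 normalized CPM in controls 1 to 3, so control 2 stood apart from the other controls. The 7 mesenchyme markers were all lower, with summed levels of 860, 125 and 216 in the controls and 108, 131 and 65.8 in Ybx1-KO. Control 1, the lowest library for E2f1, E2f2, E2f4, E2f7 and E2f8, was the highest for mesenchyme markers. The 8 erythroid markers summed to 480 to 1170 normalized CPM in the controls and to 164 to 953 in Ybx1-KO, with 5 lower and 3 higher. Among them the adult globin gene Hbb-bs had 602, 16.3 and 191 normalized CPM in the controls and 20.3, 6.33 and 4.97 in Ybx1-KO (log2 fold change -4.67), and Hbb-bt had a log2 fold change of -3.25. The embryonic Hbb-bh1 had 0.815, 16.4 and 0.711 and then 52.4, 20.7 and 10.1 (log2 fold change 2.21). The more abundant embryonic Hbb-y had 200, 558 and 137 and then 759, 234 and 126 (log2 fold change 0.32). Hba-a1 and Hba-a2 had log2 fold changes of -0.55 and -1.09. The groups overlapped for each of these globin genes. Control 2, in normalized CPM the highest control for 8 of the 10 members, was close to the Ybx1-KO libraries in Hbb-bs and Hbb-bh1. Hbb-bs, Hbb-bt and Hbb-bh1 were singled out after their values were seen. The 5 endothelial markers summed to 19.8 to 46.7 and 12.7 to 40.6, and the 6 microglia markers to 10.3 to 37.6 and 3.52 to 37.7. Only microglia markers were at 0 in any library, Aif1, C1qa and C1qb in Ybx1-KO 1 and C1qb and Ptprc in Ybx1-KO 2. The part of these cells in the differences was not tested.

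The partners and regulators of the family were described by lists, whose medians stand beside the 0.31 of all tested genes. The DP genes Tfdp1 and Tfdp2, partners of E2f1 to E2f6, had log2 fold changes of 0.11 and 0.05, with 95% intervals from -0.66 to 0.88 and from -0.79 to 0.90, and a median of 0.082. Tfdp1 had 66.3, 74.4 and 67.9 normalized CPM in the controls and 91.0, 66.7 and 67.4 in Ybx1-KO. Both signs turned when single libraries were left out.

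The MuvB list holds the DREAM complex core, which represses cell-cycle genes with E2f4 and p107 or p130, and the factors Mybl2, Mybl1 and Foxm1 that use the same core to activate genes of S phase and mitosis. Of its 8 genes, 5 had a higher fitted level, beside 61.3% of all tested genes, 2 of them at an unadjusted p below 0.05, beside 6.96%, and 0 were called. The median log2 fold change of 0.23 was below the 0.31 of all tested genes. Those 2 genes were activators. Mybl2, an E2F target that makes B-Myb, had 6.62, 10.7 and 10.1 normalized CPM in the controls and 34.2, 26.6 and 11.8 in Ybx1-KO, without overlap (log2 fold change 1.41, adjusted p = 0.405 by edgeR). Foxm1, a driver of mitotic genes, had 23.9, 44.5 and 34.2 and then 103, 64.9 and 41.5, with Ybx1-KO 3 below control 2 (log2 fold change 1.03, adjusted p = 0.444).

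The variant Polycomb complex that E2f6 joins was followed by 9 genes, of which 0 were called. Of these, 7 had a lower fitted level in Ybx1-KO, beside 8256 of all 21329 tested genes. The other 2 were higher, Ring1 with a log2 fold change of 0.51 and L3mbtl2 with 0.051. The median log2 fold change was -0.30. Among the lower genes, 1 had an unadjusted p below 0.05, beside 4.26% of all tested genes. That gene was Cbx3, which encodes the heterochromatin protein HP1 gamma. Cbx3 had 90.3, 97.9 and 75.5 normalized CPM in the controls and 42.5, 48.3 and 44.5 in Ybx1-KO, and the groups did not overlap (log2 fold change -0.96 ± 0.362 SE, adjusted p = 0.432 by edgeR).

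Upstream of the pocket proteins, 13 of 15 listed G1 cyclins, kinases and kinase inhibitors were tested. Of these, 8 were higher and 5 lower, beside 61.3% of all tested genes with a positive value. At an unadjusted p below 0.05, 2 were higher, beside 6.96% of all tested genes, and 1 was lower, beside 4.26%. The median was 0.31, the same as over all tested genes. Ccnd1, the cyclin D1 gene, had 68.3, 236 and 65.5 normalized CPM in the controls and 328, 293 and 178 in Ybx1-KO, overlapping through control 2 (log2 fold change 1.11, adjusted p = 0.444 by edgeR). Cdk2, the kinase that joins cyclin E, had 16.2, 19.5 and 12.2 and then 23.4, 37.2 and 25.7, without overlap (log2 fold change 0.85, adjusted p = 0.444). Cdk6, a partner of the D cyclins, was lower, with 72.2, 61.6 and 53.7 normalized CPM in the controls and 17.7, 47.1 and 28.6 in Ybx1-KO (log2 fold change -1.01, adjusted p = 0.444). Cdkn2a and Cdkn2b were not tested, and Cdkn2a was at 0 in all 3 control libraries.

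The listed G1/S target genes of E2F had mostly higher levels in Ybx1-KO, as the activators did. All 33 were tested, and 29 had a higher fitted level in Ybx1-KO, against 61.3% of all tested genes. Of these 29, 9 had an unadjusted p below 0.05, against 6.96% of all tested genes. None of the 33 was lower at that level, against 4.26%, and none was called. In 9 genes each Ybx1-KO library exceeded all control libraries, against 4.99% of all tested genes. In 0 the reverse held, against 8.15%. The median log2 fold change was 0.53. Cell-cycle genes had already been seen to be higher in these libraries when the list was written, so its direction is not independent evidence.

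Cdc6, which loads the replicative helicase, had 6.19, 14.5 and 7.67 normalized CPM in the controls and 25.6, 18.6 and 29.3 in Ybx1-KO (log2 fold change 1.37, standard error 0.452, adjusted p = 0.402 by edgeR). Fen1, the flap endonuclease of the lagging strand, was even within its groups, with 11.8, 12.4 and 14.2 and then 27.9, 25.5 and 30.6 (log2 fold change 1.13, adjusted p = 0.406). Neither gene overlapped between the groups, and those of Fen1 lay well apart. For Cdc6 the gap between control 2 and Ybx1-KO 2 was smaller than its SDs of 4.44 and 5.43 CPM. Of the helicase genes, Mcm3 had a log2 fold change of 1.04, Mcm2 one of 1.02 and Mcm5 one of 0.94, and Cdc45, which completes that helicase, one of 0.97, all without overlap. Mcm5 had 25.2, 32.4 and 25.2 normalized CPM in the controls and 57.0, 54.2 and 47.3 in Ybx1-KO, and DESeq2 was the setting in which it was called (adjusted p = 0.0453).

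The other target lists held few tested genes. Of 6 apoptosis genes known as E2f1 targets, 4 were tested, 2 higher and 2 lower, with 0 at an unadjusted p below 0.05 and a median log2 fold change of 0.12. Apaf1, which builds the apoptosome, had a log2 fold change of 0.48 (adjusted p = 0.550 by edgeR).

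Of 4 germline genes known to be silenced by E2f6, only Stag3, a meiotic cohesin gene, was tested, with 3.98, 2.15 and 3.51 normalized CPM in the controls and 7.60, 3.12 and 12.7 in Ybx1-KO. The groups overlapped. The log2 fold change of Stag3 was 1.27 (adjusted p = 0.460 by edgeR). Stag3 passed the filter through Ybx1-KO alone, with mean FPKM of 0.529 in control and 1.68 in Ybx1-KO, so its direction followed from the filter. Slc25a31 and Smc1b of that list were below the filter, with 0 to 10 and 1 to 12 counts per library. Of 6 genes of the multiciliated cell program, in which E2f4 and E2f5 work with Mcidas and Gmnc, 4 were tested, 3 had a higher fitted level, and 0 had an unadjusted p below 0.05, with a median of 1.02. Mcidas itself, singled out after its values were seen, had 0.863, 0.140 and 1.63 normalized CPM in the controls and 4.196, 2.60 and 2.27 in Ybx1-KO. Its groups did not overlap, beside 4.99% of all tested genes, on 3 to 37 counts per library (log2 fold change 1.78, adjusted p = 0.535 by edgeR). Foxj1, a ciliary regulator, had 4.84, 5.05 and 16.3 normalized CPM in the controls and 1.47, 14.3 and 8.95 in Ybx1-KO, and Deup1, a centriole gene of these cells, had 7 to 76 counts per library.

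**Figure D4:**
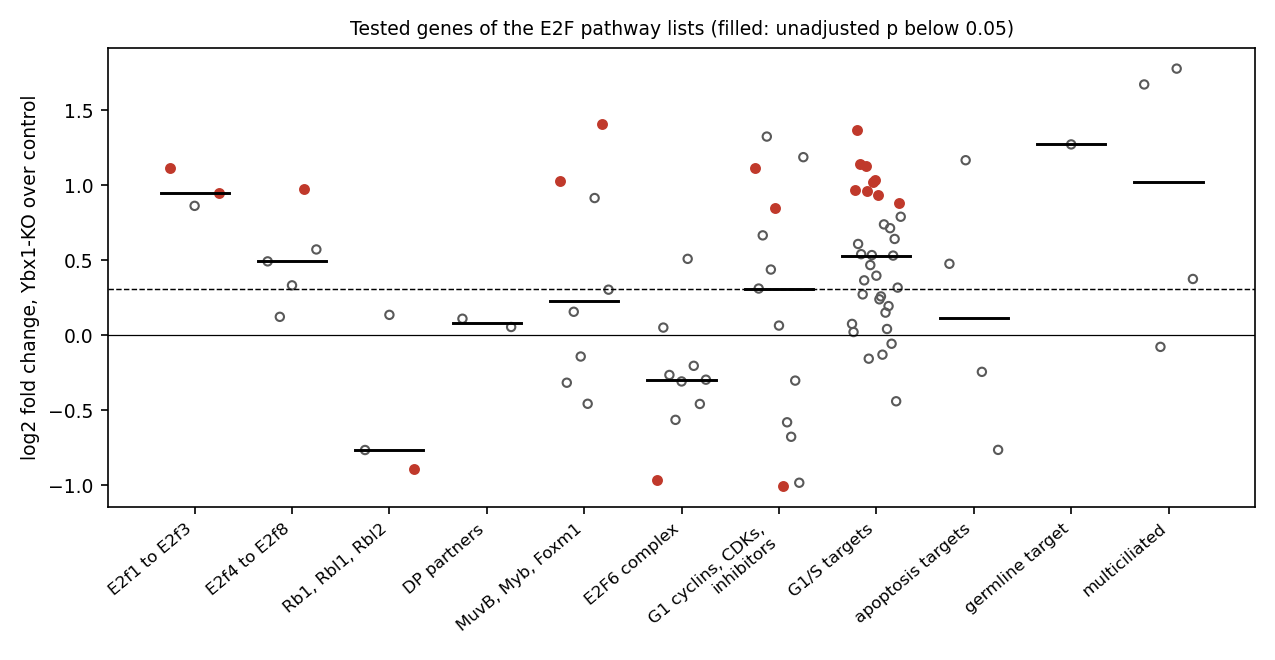
Log2 fold change, Ybx1-KO over control, of every tested gene in the member classes and pathway lists, with genes at an unadjusted p below 0.05 in edgeR filled in red, black bars at the list medians and a dashed line at the median of all tested genes, 0.31. The G1/S targets lie mostly above 0, with a median of 0.53, while the E2F6 complex list lies mostly below it, with a median of -0.30. The germline gene and the multiciliated genes Mcidas, Deup1 and Myb passed the filter through Ybx1-KO alone.

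Some properties of the libraries moved with these values. Across tested genes, longer exons went with lower log2 fold changes (Spearman rho -0.427, a description across genes and not across replicates), and the members have long exons, with a median of 5436 bases against 2691 in all tested genes. Among the 2893 tested genes with 4500 to 6500 bases of exon, a range that holds E2f2, E2f3, E2f6, E2f8, Rb1 and Rbl1, the median log2 fold change was -0.0033. In that range 5.77% of genes had every Ybx1-KO library above every control and 11.3% every one below. With offsets for exon length, E2f1 stood at 1.06, E2f3 at 1.02 and Rb1 at -0.66 on the log2 scale.

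If the level on receptor genes is taken as a background per kilobase, it would make up 3.76 to 13.49% of the members' counts in Ybx1-KO 3 and at most 1.37% in the other libraries. Subtracting it left E2f1 at 1.17, E2f3 at 1.01 and Rb1 at -0.73. Some members share exon bases with a gene on the other strand, and since the strand setting of the counting was not given in the sources used here, such counts are uncertain. Rb1 shares 488 bases (8.11% of its exon length) with Rcbtb2 and 408 (6.78%) with Lpar6, E2f8 shares 610 (11.2%) with Gm2788, and E2f5 and E2f7 share 1.46 and 0.955% with a neighbour. Rcbtb2 had 62.0, 77.5 and 66.3 normalized CPM in the controls and 89.1, 69.9 and 56.7 in Ybx1-KO, Lpar6 had 14.2 to 30.3 and Gm2788 at most 7.25 in any library.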

How the data were processed

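Total RNA of 6 sorted NPC samples was made into stranded libraries and sequenced as paired reads, on sequencer models that the sources do not assign to libraries. The authors mapped the reads, counted them on genes with HTSeq 0.6.1p1 and a GENCODE annotation, and deposited raw counts by gene symbol, 1 table per library, unnormalized and unpooled. Per the labels, the processing notes also name CASAVA, mm10 and GRCm38.p5. The aligner and the strand setting of the counting are not given in the sources used here. The counter's own tallies (reads outside genes, ambiguous, unaligned) were left out of tests and library sizes.

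Exon lengths came from GENCODE M21 (GRCm38), where 47624 symbols matched directly, 357 by an older symbol and 3752 not. Genes entered at a mean FPKM above 1 in either group, which 21329 passed (13144 in both groups, 951 in control and 7234 in Ybx1-KO alone). Counts were normalized by TMM and tested with edgeR's quasi-likelihood test and Benjamini-Hochberg adjustment (R 4.3.3, edgeR 4.0.16, limma 3.58.1, DESeq2 1.42.0). Standard errors are the log2 fold change over the root of F. Intervals are 95% from the same fit. The authors used limma-voom, which was an alternative. No covariate was used, and the labels give no pairing across the groups. No library was a copy of another (chi-square over its degrees of freedom 51.1 or more for each pair). Nothing shows whether the samples are separate litters, so p-values measure the spread between these samples. Limits from counts cover counting error only. The biological coefficient of variation was 0.800.

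Members and lists were chosen with earlier results of these data known. All members and Ybx1 are named, and from each pathway list the genes with an unadjusted p below 0.05, at most 6 by smallest p, otherwise the 2 with the highest FPKM. A gene that meets this rule is not reported here. Rb1 to E2F ratios and the length range were added after values were seen. Alternatives were 3 scalings, DESeq2, limma-voom, robust dispersion, 3 filters, background subtraction, length offsets, dropping the 20 most abundant genes, and leaving out each library. Promoter sequences are RefSeq's (GRCm38.p6). Figures used matplotlib 3.10.9 in Python 3.11.15.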

Additional observations from a re-analysis of the deposited data

How the results depend on the processing

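The count of members called was 0 under all 24 alternatives. In each, the activator and repressor medians stayed above 0. The activator share is read within each library, so scaling, test and filter do not enter it. Nor could its direction turn with a library left out, since its groups did not overlap. With background subtraction it kept its direction. The median of all tested genes moved with the scaling and filter, from 0.31 to 0.53 with total count scaling, 0.70 without a filter and 0.08 with a CPM filter, and was 0.67 without Ybx1-KO 2 and 0.01 without Ybx1-KO 3. Relative to it, the activator median was 0.64 higher as reported, 0.60 with total count scaling, 0.13 without a filter and 0.97 with a CPM filter. This excess was 0.25 without Ybx1-KO 2 and 0.38 without control 1. The repressor median was 0.18 higher as reported and 0.10 with total count scaling. It was below that of all tested genes without a filter (-0.31), without Ybx1-KO 2 (-0.20) and without control 1 (-0.012). Without a filter, 1 member was higher at an unadjusted p below 0.05 and 0 had no overlap, and total count scaling gave 5 without overlap. With a library left out, 0 to 4 members were higher at that p, with 0 when control 1 or control 3 was dropped (and without Ybx1-KO 2 on the genes tested in all libraries), 0 to 1 were lower, with 1 when Ybx1-KO 2 was dropped, and 3 to 5 had no overlap. The activator median then ran from 0.69 to 1.25. DESeq2 called 1 pathway gene (0 to 2 with a library left out, the 2 without Ybx1-KO 2). Ybx1 passed an adjusted p of 0.05 with DESeq2 (-2.44) and without a filter (-2.52), and ran from -3.49 to -1.95 with a library left out, passing without Ybx1-KO 1 (-3.46 on the genes tested in all libraries) or 2.

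Signs turned in genes near 0. Rbl1 was -0.015 without a filter, and with a library left out it ran from -0.13 to 0.45, or on the genes tested in all libraries was -0.135 without control 3 and -0.013 without Ybx1-KO 3. E2f5 ran from -0.17 to 0.32, and was -0.098 without Ybx1-KO 1 on the genes tested in all libraries. Tfdp1 ran from -0.13 to 0.29 and Tfdp2 from -0.19 to 0.39, with -0.0048 and -0.048 without a filter, and on the genes tested in all libraries Tfdp1 was -0.053 without Ybx1-KO 1 and Tfdp2 -0.194 without control 3 and -0.078 without Ybx1-KO 2. Foxj1 was 0.024 with upper quartile scaling, 0.084 with total count scaling, 0.0036 with a CPM filter and 0.0092 on protein-coding genes, and ran from -0.59 to 0.74 with a library left out, or, on the genes tested in all libraries, to 0.737 without control 3 and 0.420 without Ybx1-KO 1. The cause was not tested. Depth limits the Ybx1-KO group most, since Ybx1-KO 3 had 4743279 counts. No paired analysis was possible because the labels tie no control to a Ybx1-KO sample, and the numbers 1 to 3 used here follow accession order alone.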
